A study of Mus musculus with 20 samples.

Results

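Neurons are added to the adult dentate gyrus of the hippocampus throughout life, and 10 genes that mark dividing progenitors and newborn neurons were followed here in the hippocampus of 20 male C57BL/6 mice. The genes were chosen by symbol, as Mki67 and Top2a for dividing cells and Eomes, Neurod1, Sox4, Sox11, Igfbpl1, Calb2, Draxin and Dcx for intermediate progenitors and immature neurons. All 10 matched a single identifier among the 57126 counted, and all 10 were among the 18648 genes that passed the filter on low counts. The rule used gene names and no measured value, although earlier results of these data were known when the genes were chosen.

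All mice had their adrenal glands removed at about 2.5 months of age, so every group, PBS mice included, lacked adrenal glucocorticoid. The treatment followed 2 weeks later. Mice received an intraperitoneal injection of phosphate-buffered saline (PBS) or of the synthetic glucocorticoid dexamethasone (Dex) at 1 mg per kg, and the hippocampus was taken 6 h later. There were 5 wild-type and 5 homozygous GRA knockin mice under each treatment. The knockin allele keeps the first start codon of the glucocorticoid receptor gene Nr3c1 and changes the 7 internal ones in exon 2 to isoleucine codons, which leaves the full-length receptor GRA without its shorter forms. Mice with intact adrenal glands were not analysed here. Libraries held 11493014 to 48267708 read pairs assigned to genes. Levels are given as CPM, the read pairs of a gene per 1000000 assigned, after TMM scaling for library composition. Nr3c1 was at group means of 98.6 to 163 CPM, and a count per gene does not show which start codons are present. Wild-type PBS replicates 1 and 2 stood apart in liver transcripts, and wild-type PBS replicate 4 and knockin Dex replicate 2 in choroid plexus transcripts. Fold changes and calls were therefore also computed without them, while levels, spreads and correlations use all 20 libraries.

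Adult-born granule neurons arise from radial glia-like stem cells, which give rise to dividing intermediate progenitors, then to migrating neuroblasts and immature granule neurons. Each step has its own genes: Mki67 and Top2a are switched on in the late part of the cell cycle, Eomes marks intermediate progenitors, and Dcx, Sox4 and Sox11 mark neuroblasts and immature neurons. Glucocorticoids are known to slow adult neurogenesis, and removal of the adrenal glands is known to raise the number of dividing cells in the dentate gyrus. The comparison asked whether the transcripts of this lineage had moved by 6 h after a single injection of Dex, and whether the receptor form mattered.

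None of the 10 genes passed the test for a change with Dex. In wild-type mice 0 of 10 passed edgeR's quasi-likelihood test (adjusted p below 0.05), against 9.21% of all genes tested (5.27% higher and 3.94% lower). In knockin mice 0 of 10 were called, against 10.0% of all genes (5.28% higher and 4.71% lower). For the mean response over both genotypes 0 of 10 were called, against 18.2% of all genes (9.79% higher and 8.41% lower). The count at an unadjusted p below 0.05 was also 0 of 10 in each of these comparisons, where 19.9%, 20.8% and 28.9% of all genes passed, and DESeq2 and limma-voom also called 0 of 10. The values of the Dex and PBS mice overlapped for all 10 genes in both genotypes, where the groups of 8.22% of all genes in wild-type and 8.68% in knockin did not overlap. The median log2 fold change of the 10 genes was 0.0035 in wild-type and -0.089 in knockin, beside -0.00051 and 0.0015 over all genes.

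Levels between the genes were compared per kilobase of the merged exon length that the files give. Calb2 was highest at 15.0 ± 2.62 CPM per kilobase (SD, n = 20), followed by Neurod1 at 8.59 ± 0.844 and Sox4 at 6.01 ± 0.869. Dcx at 3.04 ± 0.408 and Sox11 at 2.56 ± 0.376 formed a middle pair, and Igfbpl1 followed at 1.36 ± 0.322. Top2a at 0.526 ± 0.101, Mki67 at 0.515 ± 0.0707, Draxin at 0.386 ± 0.0755 and Eomes at 0.225 ± 0.0672 were lowest. Mki67 and Top2a did not differ beyond their spread, since Top2a was the higher of the pair in 10 of 20 libraries. The ranges of 4 further neighbouring pairs stood apart (Calb2 over Neurod1, Sox4 over Dcx, Sox11 over Igfbpl1 and Igfbpl1 over Top2a). The other neighbours had ranges that overlapped although the order held in 19 or 20 of 20 libraries. Among all genes tested, the mean level per kilobase of Calb2 was at percentile 76.8, that of Dcx at 41.1, that of Mki67 at 14.2 and that of Eomes at 4.79.

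**Figure D1:**
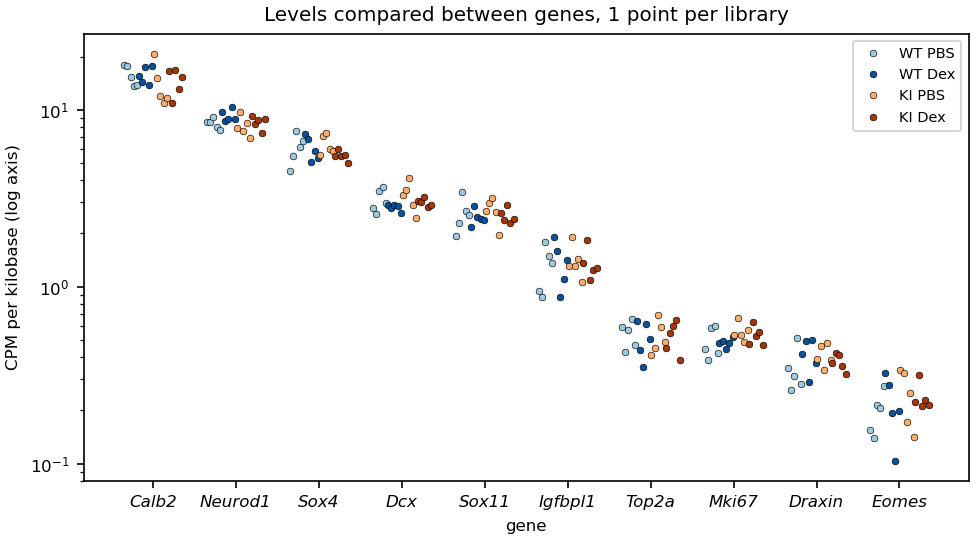
Level of each of the 10 genes in every library, in CPM per kilobase of merged exon on a log axis, with genes ordered by their mean and points coloured by group. The genes span from Calb2 at a mean of 15.0 to Eomes at a mean of 0.225, and the 4 groups are intermixed within each gene.

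The promoter sequences of 4 of the genes are shown because they hold matches to short motifs known from cell cycle and neuronal promoters. Each is the stretch of 250 bases just before the transcription start, from RefSeq on GRCm38.p6, written 5′ to 3′ on the gene's own strand. Of the 10 genes, 8 are in that table, and Igfbpl1 and Calb2 are not. The Mki67 stretch lies at chr7:135716380-135716629, Top2a at chr11:99024190-99024439, Sox4 at chr13:28953700-28953949 and Sox11 at chr12:27342719-27342968, all on the minus strand. Capitals mark matches, on either strand, to TTTGAA (the cell cycle genes homology region), CCAAT (the CCAAT box) or CAGCTG (an E-box of the kind bound by basic helix-loop-helix factors).
Mki67: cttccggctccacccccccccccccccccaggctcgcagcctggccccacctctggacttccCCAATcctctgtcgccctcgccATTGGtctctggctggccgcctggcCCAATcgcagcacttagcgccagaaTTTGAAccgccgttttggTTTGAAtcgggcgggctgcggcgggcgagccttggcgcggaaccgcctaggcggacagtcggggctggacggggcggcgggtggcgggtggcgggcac
Top2a: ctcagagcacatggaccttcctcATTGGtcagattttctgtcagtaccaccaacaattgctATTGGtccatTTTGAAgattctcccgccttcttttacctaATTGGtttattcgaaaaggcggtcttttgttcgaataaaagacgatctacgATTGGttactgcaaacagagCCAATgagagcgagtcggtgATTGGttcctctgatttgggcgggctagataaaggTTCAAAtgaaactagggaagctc
Sox4: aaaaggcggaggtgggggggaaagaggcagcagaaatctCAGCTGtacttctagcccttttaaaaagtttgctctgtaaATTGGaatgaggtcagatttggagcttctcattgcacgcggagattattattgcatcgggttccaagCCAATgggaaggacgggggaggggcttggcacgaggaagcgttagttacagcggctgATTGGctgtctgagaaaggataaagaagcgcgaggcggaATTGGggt
Sox11: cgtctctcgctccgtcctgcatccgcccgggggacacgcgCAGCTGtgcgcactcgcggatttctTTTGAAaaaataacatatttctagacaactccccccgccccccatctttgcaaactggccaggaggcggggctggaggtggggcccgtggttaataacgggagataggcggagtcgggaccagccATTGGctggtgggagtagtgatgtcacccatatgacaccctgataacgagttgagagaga
Mki67 and Top2a each held 2 matches to TTTGAA, and those of Mki67 began 116 and 98 bases before the start. Sox11 held 1, at 185 bases before the start, and the other 5 genes in the table held none. Of 32851 promoter windows of this length 16% held that motif. CCAAT was present in 6 of the 8 genes, with 6 matches in Top2a, 4 in Sox4 and 3 in Mki67, and in 33.8% of all windows. CAGCTG was present in Sox4, Sox11 and Draxin and in 13% of all windows, and the E-box CATCTG was in none of the 8 and in 14.4% of all windows. The glucocorticoid response element half-site AGAACA was in none of the 8 windows and in 16.1% of all windows, and the full element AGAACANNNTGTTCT was in none of the 8 and in 3 of all windows (0.00913%). No match overlapped another in the 8 genes. These are letter matches in a short window, and they say nothing of where a factor binds.

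Mki67 (ENSMUSG00000031004.9, chr7:135291513-135318090 on mm39, minus strand) encodes the Ki-67 protein that coats mitotic chromosomes and is present in cycling cells. In wild-type mice its CPM was 4.46, 3.89, 5.91, 6.02 and 4.27 under PBS, and 4.82, 4.98, 4.47, 4.84 and 5.19 under Dex. In knockin mice it was 5.34, 6.65, 5.36, 4.89 and 5.75 under PBS, and 4.76, 6.37, 5.30, 5.58 and 4.73 under Dex. The wild-type Dex mice lay close together inside the range of the wild-type PBS mice, and the highest of the 20 values belonged to a knockin PBS mouse. With Dex the log2 fold change was -0.0028 in wild-type (SE 0.12, 95% interval -0.25 to 0.25) and -0.068 in knockin (SE 0.12, interval -0.31 to 0.17).

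Top2a (ENSMUSG00000020914.18, chr11:98883769-98915015, minus strand) encodes topoisomerase II alpha, which untangles sister chromosomes before they separate. Its CPM ran from 1.84 to 3.61 over all 20 libraries, with the lowest in a wild-type Dex mouse and the highest in a knockin PBS mouse. Group means were 2.83 ± 0.484 in wild-type PBS, 2.67 ± 0.632 in wild-type Dex, 2.74 ± 0.598 in knockin PBS and 2.75 ± 0.563 in knockin Dex (SD, n = 5 each). On the log2 scale the Dex change was -0.072 in wild-type (interval -0.45 to 0.30) and 0.0033 in knockin (interval -0.36 to 0.37).

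Eomes (ENSMUSG00000032446.15, chr9:118307280-118315200, plus strand) encodes the T-box factor TBR2 of intermediate progenitors and was the least abundant of the 10 genes, with 5 to 39 read pairs per library. Its CPM was 0.570, 0.514, 0.794, 0.761 and 1.01 in wild-type PBS mice, and 1.2, 1.02, 0.717, 0.384 and 0.727 in wild-type Dex mice. It was 1.25, 1.2, 0.637, 0.921 and 0.523 in knockin PBS mice, and 0.818, 1.17, 0.779, 0.842 and 0.788 in knockin Dex mice. The lowest value of all was in a wild-type Dex mouse and the highest in a knockin PBS mouse, and the groups overlapped. Its Dex log2 fold change was 0.17 in wild-type (SE 0.27, interval -0.38 to 0.73) and -0.11 in knockin (SE 0.25, interval -0.64 to 0.41). At this depth a change in Eomes smaller than these intervals was not detectable.

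Neurod1 (ENSMUSG00000034701.10, chr2:79282865-79287095, minus strand) encodes a basic helix-loop-helix factor that drives granule neuron differentiation and is also expressed in older granule neurons. Its CPM was 23.4, 23.4, 24.9, 21.9 and 21.0 in wild-type PBS mice, and 26.6, 23.7, 24.3, 28.3 and 24.3 in wild-type Dex mice. In knockin mice it was 21.6, 26.4, 20.8, 23.1 and 18.8 under PBS, and 25.1, 22.8, 23.9, 20.2 and 24.2 under Dex. The 2 highest wild-type values belonged to Dex mice, yet the groups overlapped. With Dex the log2 fold change was 0.14 in wild-type (SE 0.074, interval -0.0073 to 0.30, edgeR adjusted p = 0.283) and 0.061 in knockin (SE 0.074, adjusted p = 0.717). The mean over both genotypes was 0.10 (SE 0.052, interval -0.0045 to 0.21), with an edgeR adjusted p of 0.196, the lowest of the 10 genes.

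Sox4 (ENSMUSG00000076431.5, chr13:29132902-29137696, minus strand) and Sox11 (ENSMUSG00000063632.7, chr12:27384263-27392573, minus strand) are closely related SoxC transcription factors that act together in newborn neurons and switch on genes of neuronal differentiation, Dcx among them. Sox4 CPM was 21.6, 26.4, 36.3, 29.6 and 31.9 in wild-type PBS mice, and 35.1, 32.7, 24.2, 28.0 and 25.7 in wild-type Dex mice. In knockin mice Sox4 CPM was 26.6, 34.2, 35.5, 28.6 and 27.9 under PBS, and 26.3, 28.8, 26.2, 26.7 and 24.0 under Dex. The knockin Dex mice were the tightest Sox4 group, and 3 of the 5 knockin PBS mice lay within the range of the knockin Dex mice. The log2 fold change of Sox4 with Dex was -0.010 in wild-type (SE 0.13) and -0.21 in knockin (SE 0.13, interval -0.48 to 0.059, edgeR adjusted p = 0.388).

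Sox11 CPM was 16.0, 19.0, 28.5, 22.2 and 21.2 in wild-type PBS mice, and 18.1, 23.6, 20.5, 20.1 and 19.7 in wild-type Dex mice. In knockin mice Sox11 CPM was 22.3, 24.7, 26.4, 22.1 and 16.4 under PBS, and 21.7, 19.8, 24.0, 19.0 and 20.1 under Dex. In both genotypes the PBS mice spanned a wider range than the Dex mice and enclosed it. The log2 fold change of Sox11 with Dex was -0.082 in wild-type (interval -0.36 to 0.20) and -0.11 in knockin (interval -0.38 to 0.16).

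Igfbpl1 (ENSMUSG00000035551.7, chr4:45809468-45826923, minus strand) encodes a secreted protein of the insulin-like growth factor binding protein family and is a marker of neuroblasts. Its CPM was 2.71, 2.49, 5.11, 4.26 and 3.91 in wild-type PBS mice, and 5.44, 4.54, 2.49, 3.15 and 4.05 in wild-type Dex mice. In knockin mice it was 3.74, 5.45, 3.77, 4.08 and 3.05 under PBS, and 3.92, 5.25, 3.12, 3.58 and 3.64 under Dex. Each group held both high and low mice, with 5.11 to 5.45 as the top value of all 4. On the log2 scale the Dex change was 0.088 in wild-type (SE 0.22) and -0.060 in knockin (SE 0.21).

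Calb2 (ENSMUSG00000003657.10, chr8:110864134-110894842, minus strand) encodes calretinin, a calcium-binding protein of newly postmitotic granule neurons that interneurons and mossy cells of the mouse hippocampus also contain. Its CPM ran from 19.1 to 36 over the 20 libraries, with both extremes in knockin PBS mice. Group means were 27.4 ± 3.6 in wild-type PBS, 27.5 ± 3.17 in wild-type Dex, 24.5 ± 7.02 in knockin PBS and 25.4 ± 4.32 in knockin Dex (SD, n = 5 each). Its Dex log2 fold change was 0.0098 in wild-type (interval -0.33 to 0.35) and 0.033 in knockin (interval -0.31 to 0.38).

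Draxin (ENSMUSG00000029005.5, chr4:148182894-148215155, minus strand) encodes a secreted axon guidance protein that is present in the neurogenic zone. Its CPM was 1.80, 1.36, 1.62, 2.66 and 1.47 in wild-type PBS mice, and 2.16, 2.56, 1.5, 2.61 and 1.92 in wild-type Dex mice. In knockin mice it was 2.03, 2.40, 1.75, 2.48 and 2.00 under PBS, and 1.93, 2.20, 2.13, 1.86 and 1.67 under Dex. Of the wild-type PBS mice 4 had 1.80 or less and the remaining mouse had the highest value of all 20. With Dex the log2 fold change was 0.29 in wild-type (SE 0.18, interval -0.074 to 0.66, edgeR adjusted p = 0.394) and -0.14 in knockin (SE 0.17, interval -0.49 to 0.22).

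Dcx (ENSMUSG00000031285.15, chrX:142638838-142716307, minus strand) encodes doublecortin, the microtubule-binding protein used most widely to mark migrating neuroblasts and immature neurons. Its CPM was 25.7, 23.9, 31.9, 34 and 27.6 in wild-type PBS mice, and 26.7, 25.6, 26.6, 26.6 and 24.2 in wild-type Dex mice. In knockin mice it was 30.6, 32.5, 38.2, 26.9 and 22.5 under PBS, and 28.3, 27.7, 29.6, 26.2 and 26.7 under Dex. The Dex mice of both genotypes lay inside the range of the PBS mice and were less spread, with an SD of 1.06 against 4.26 in wild-type and 1.35 against 5.92 in knockin. On the log2 scale the Dex change was -0.13 in wild-type (SE 0.11, interval -0.35 to 0.090) and -0.13 in knockin (SE 0.10, interval -0.35 to 0.085). The mean over both genotypes was -0.13 (SE 0.074, interval -0.29 to 0.023, edgeR adjusted p = 0.258). In whole tissue, fewer cells of a type and less of a transcript per cell cannot be told apart.

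**Figure D2:**
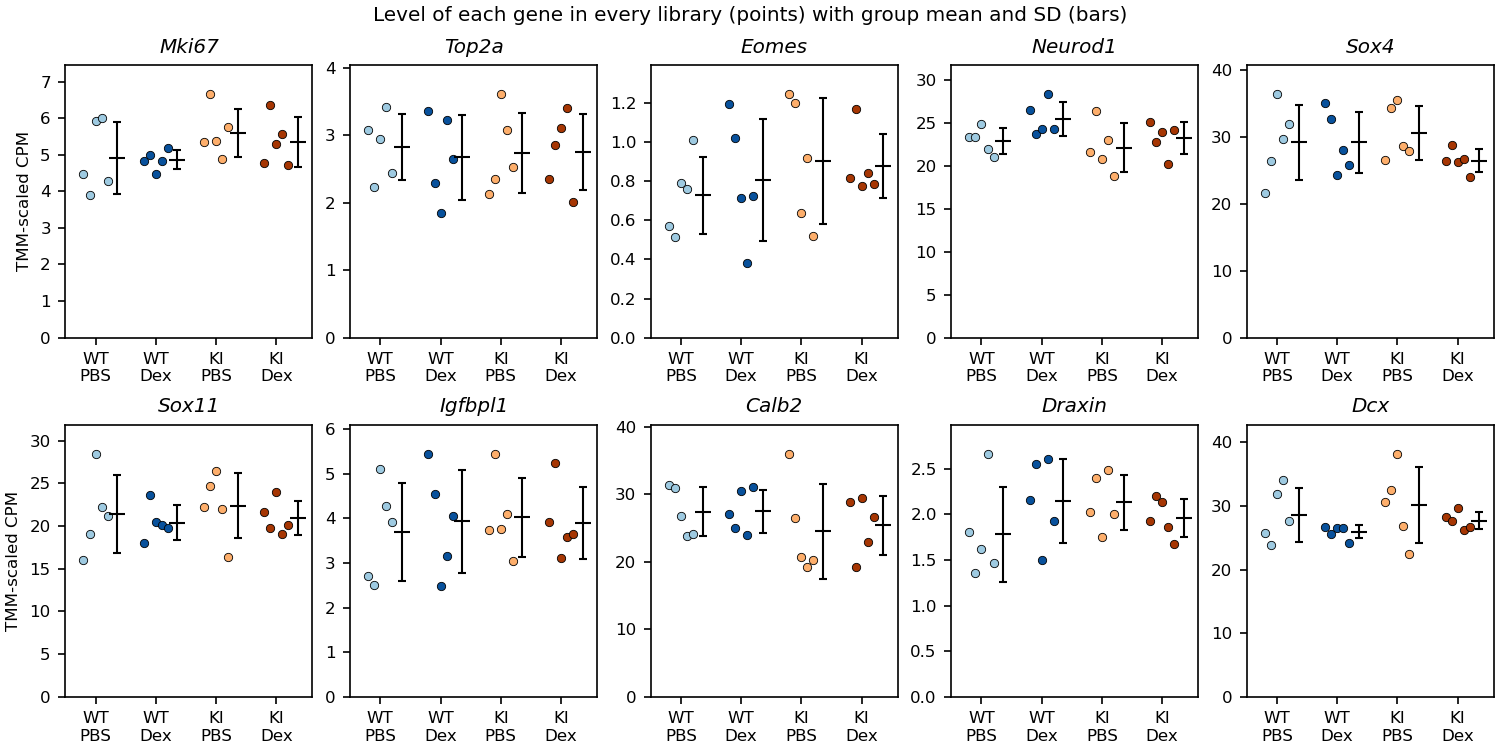
TMM-scaled CPM of each of the 10 genes in every library, by group, with the group mean and SD beside the points (n = 5 per group, axes from 0). The groups overlap in every panel, and the Dcx points of the Dex mice lie closer together than those of the PBS mice.

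The wild-type PBS group held 2 libraries that stood apart in markers of another tissue. The summed CPM of 8 liver transcripts was 197 in replicate 1 and 116 in replicate 2, and 3.99 to 52.7 in the other 18 libraries. The same 2 mice had the lowest values of their group for Eomes, Sox4, Sox11, Igfbpl1 and Dcx and the highest for Calb2. Without them the log2 fold change with Dex in wild-type was -0.26 for Dcx (unadjusted p = 0.0274, adjusted p = 0.169, edgeR) and -0.26 for Sox11 (adjusted p = 0.246). Without them Sox4 was at -0.18 and Igfbpl1 at -0.18, so that the difference for Igfbpl1 changed its sign, and the mean response of Dcx over both genotypes was -0.20 (adjusted p = 0.0594). None of the 10 genes was called without them, and the part of these libraries in the levels was not tested. The summed CPM of 7 choroid plexus transcripts was 1777 in wild-type PBS replicate 4 and 1420 in knockin Dex replicate 2, and 37.4 to 597 in the others. Without those libraries the log2 fold change of Draxin with Dex in wild-type was 0.43 (adjusted p = 0.141, edgeR), and 0 of 10 genes were called. Both settings were added after the values were seen.

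Genotype was compared under each treatment and through the difference of the Dex responses. Of the 10 genes 0 were called for knockin against wild-type under PBS, under Dex or for the interaction by edgeR, against 0% of all genes in each case. At an unadjusted p below 0.05 the count was 0 of 10 in all 3 comparisons, where 3.61%, 4.44% and 2.83% of all genes passed, and DESeq2 and limma-voom called 0 of all genes. The values of the genotypes overlapped for all 10 genes under PBS and under Dex, where 0.670% and 0.788% of all genes did not overlap. The median log2 fold change of knockin against wild-type was 0.082 under PBS and 0.015 under Dex.

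Under PBS the highest differences were Eomes at 0.36 (SE 0.26, interval -0.18 to 0.90) and Draxin at 0.32 (SE 0.18, interval -0.038 to 0.69). Mki67 followed at 0.20 (SE 0.12, interval -0.045 to 0.45), and Calb2 was lowest at -0.14 (SE 0.16). Under Dex all 10 genes lay between -0.14 (Sox4) and 0.14 (Mki67). The knockin response to Dex minus the wild-type response was farthest from 0 for Draxin at -0.43 (SE 0.25, interval -0.94 to 0.080) and Eomes at -0.29 (SE 0.37), and for Dcx it was -0.00061 (SE 0.15, interval -0.31 to 0.31). These intervals include 0 for all 10 genes and also allow genotype differences of their own width. Without the wild-type PBS mice of high liver sum, Sox4, Sox11, Igfbpl1 and Dcx under PBS were at -0.11, -0.096, -0.13 and -0.028, each of the opposite sign to the value with all mice. The Eomes values also depended on the setting. Over the alternative settings, which include leaving out libraries, its genotype difference under PBS ran from 0.13 to 0.53. Its Dex change in wild-type ran from -0.066 to 0.34, and its interaction from -0.46 to -0.060.

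**Figure D3:**
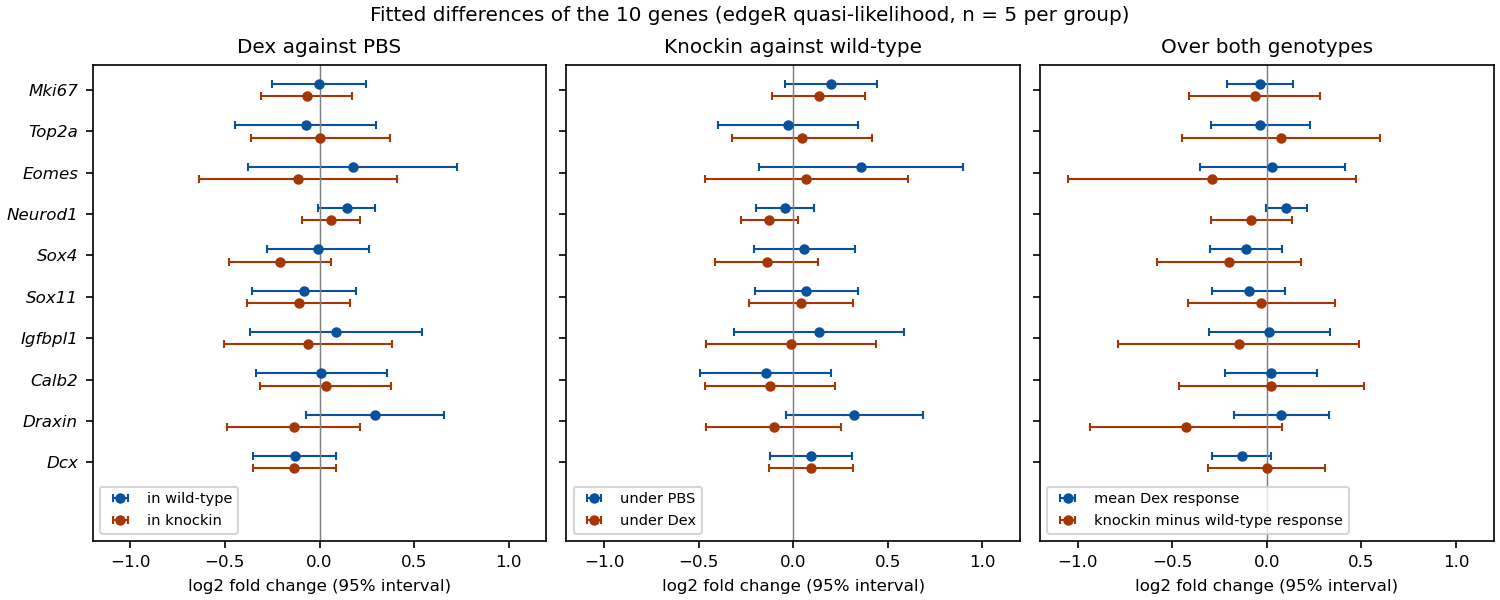
Fitted log2 fold change of each gene with its 95% interval, for Dex against PBS in each genotype (left), knockin against wild-type under each treatment (middle), and the mean Dex response with the knockin minus wild-type response (right). The intervals cross 0 for all 10 genes in all 3 panels and are widest for Eomes, the gene with the lowest counts.

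In 9 of the 10 genes the libraries of a group differed more than in the median gene, which was not matched for level. The within-group SD of log2 CPM was 0.43 for Eomes, 0.37 for Igfbpl1, 0.30 for Top2a, 0.27 for Draxin and 0.26 for Calb2, and the median over all genes was 0.13. Sox11 at 0.22, Sox4 at 0.21, Mki67 at 0.19 and Dcx at 0.18 were also above that median, and Neurod1 at 0.13 was just below it. Eomes, Draxin, Top2a and Igfbpl1 had the lowest counts of the 10, at 5 to 39, 23 to 92, 29 to 112 and 35 to 187 read pairs per library.

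Some pairs of the genes varied together between mice of a group. After centring log2 CPM on the group means, 38 of the 45 pairs had a positive Pearson's r. The median was 0.27 and the range -0.49 to 0.77 over 20 libraries. The share of positive pairs among other genes was not computed, so 38 of 45 has no background to be read against. Of the 45 pairs 3 passed an adjusted permutation p below 0.05 for both Pearson's r and Spearman's rho. How often pairs of other genes pass this test was not computed either, so the 3 pairs have no background. Sox4 with Igfbpl1 had r = 0.769 and rho = 0.764 (permutation p = 0.00094 and 0.00129, adjusted p = 0.0382 and 0.0235), and r was 0.719 without the 2 libraries farthest from the median of Sox4. Sox11 with Dcx had r = 0.760 and rho = 0.738 (permutation p = 0.00255 and 0.00157, adjusted p = 0.0382 and 0.0235), and r was 0.661 without the 2 farthest libraries. Eomes with Igfbpl1 had r = 0.714 and rho = 0.729 (permutation p = 0.00183 and 0.00135, adjusted p = 0.0382 and 0.0235), and r was 0.691 without the 2 farthest. These pairs join an intermediate progenitor gene or a SoxC factor to a neuroblast gene, but other pairs of those kinds did not pass. Among them were Sox4 with Dcx, Sox11 with Igfbpl1 and Eomes with Dcx (adjusted permutation p = 0.223, 0.301 and 0.515 for r). The correlations were not computed without wild-type PBS replicates 1 and 2, which stood apart in liver transcripts. Those 2 mice were the lowest of their group for Eomes, Sox4, Sox11, Igfbpl1 and Dcx, and their part in the pairs was not tested.

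The pair of dividing-cell genes did not pass: Mki67 with Top2a had r = 0.356 (permutation p = 0.121, adjusted p = 0.348). Sox4 with Sox11 had r = 0.612 (adjusted permutation p = 0.172), and 0.342 without the 2 farthest libraries, so that value rests on those libraries. Calb2 had negative r with Top2a (-0.487), Sox4 (-0.435) and Draxin, and none of its pairs passed. Library depth is shared by all genes of a library, and none of the 10 genes was related to it past the adjusted threshold. The highest was Draxin (r = -0.507, rho = -0.435, permutation p = 0.0367 and 0.0792, adjusted p = 0.328 and 0.31), and r was -0.418 without the 2 farthest libraries. For Sox4, Sox11, Igfbpl1 and Dcx, r with depth was 0.0767, 0.189, 0.1 and 0.0607, and for Eomes it was 0.425.

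**Figure D4:**
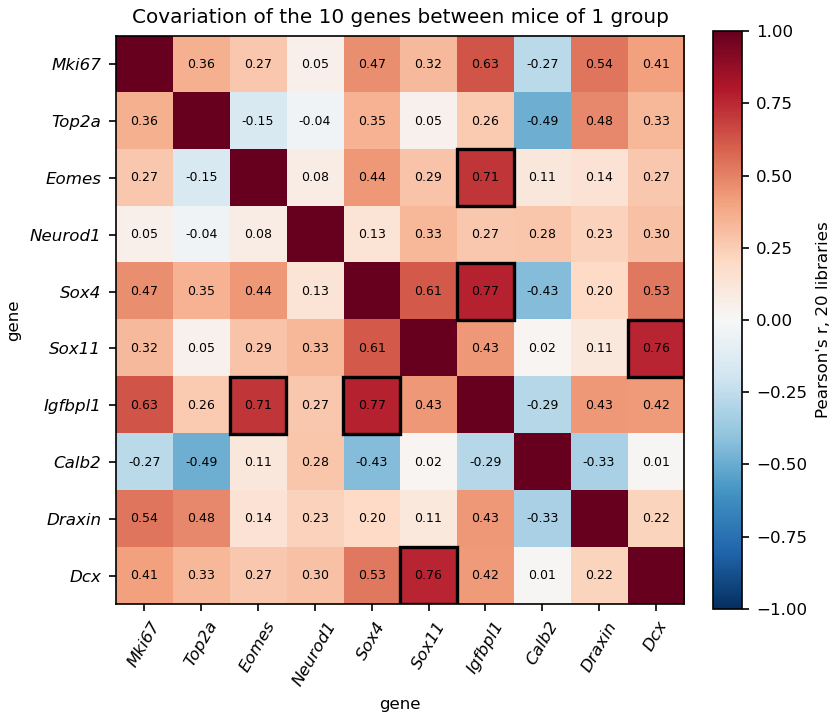
Pearson's r between each pair of the 10 genes over 20 libraries, from log2 CPM centred on the group means, with black outlines on the 3 pairs that passed an adjusted permutation p below 0.05. Sox4 with Igfbpl1, Sox11 with Dcx and Eomes with Igfbpl1 are outlined, and the row of Calb2 holds most of the negative values.

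The genes whose variation between mice was most like that of 3 of the genes were ranked by r over the 20 libraries, as a description of libraries that share their depth and dissection. For Dcx they were Atp11b (r = 0.889), Plppr3 (0.883), Galnt14 (0.866), Zbtb32 (0.851) and Atp2b4 (0.844), among 16017 genes compared. For Eomes they were H2afx (0.816), Plpp5 (0.812), Adprh (0.799), R3hdm4 (0.768) and Gm36501 (0.761), among 16018. For Top2a they were Slc35b4 (0.793), Mtmr2 (0.784), Plekhg1 (0.783), Hipk2 (0.775) and Ddt (0.769). None of the other 9 genes was among the 5 nearest to Dcx, Eomes or Top2a.

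Other genes of the cell cycle were set beside Mki67 and Top2a. Over all genes 9.21% were called with Dex in wild-type, 10.0% in knockin and 18.2% in the mean. Of 20 other mitosis and G2 genes 17 were tested, and 0 were called with Dex in wild-type, in knockin or in the mean by edgeR. At an unadjusted p below 0.05 there were 0, 1 and 1, and their median log2 fold change was 0.051, 0.035 and 0.040. The 3 not tested were Ccnb1, Aurkb and Bub1. Of 15 S phase and replication genes 0 rose and 2 fell in wild-type, and 1 rose and 2 fell in knockin. The helicase subunits Mcm2 and Mcm3 fell in both, with log2 fold changes of -0.32 and -0.52 in wild-type and -0.42 and -0.38 in knockin. Rrm2, a ribonucleotide reductase subunit, rose in knockin by 0.80 (SE 0.22, edgeR adjusted p = 0.0178). Wild-type mice did not pass for Rrm2, yet their values stood apart, at most 1.56 CPM under PBS and at least 1.61 under Dex. The knockin values overlapped, up to 2.09 CPM under PBS and down to 1.87 under Dex. Mean Rrm2 levels under PBS and Dex were 1.33 and 2.12 CPM in wild-type, and 1.65 and 2.81 in knockin. The Rrm2 response was not called as different between the genotypes. In the mean of both genotypes Mcm7 also rose, by 0.18.

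Of 8 cell cycle inhibitors and D cyclins, Cdkn1a and Ccnd3 rose in both genotypes and Ccnd1 fell in wild-type and in the mean. Cdkn1a, which encodes the cyclin-dependent kinase inhibitor p21, was at 4.52 ± 0.676 CPM in wild-type PBS mice and 60.7 ± 23.9 in wild-type Dex mice (SD, n = 5), and at 5.38 ± 0.823 and 54.0 ± 15.7 in knockin mice. Its log2 fold change was 3.71 in wild-type (SE 0.32, edgeR adjusted p = 6.48e-07) and 3.35 in knockin (SE 0.32, adjusted p = 1.81e-06). Mki67 and Top2a in the same libraries had the values given above. Ccnd2, a D cyclin expressed in intermediate progenitors, was not called, at -0.13 in wild-type and -0.17 in knockin (adjusted p = 0.381 and 0.188, edgeR). Its mean was 92.9 CPM over the 20 libraries, beside 0.831 for Eomes, and the cells it came from were not tested.

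Of 20 other intermediate progenitor and neuroblast genes 19 were tested, and 2 rose and 0 fell in wild-type and 1 rose and 0 fell in knockin. In the mean of both genotypes 2 rose and 2 fell, and 14 of the 19 had a negative log2 fold change. These counts of calls lie near the shares of all genes called, 9.21%, 10.0% and 18.2%. At an unadjusted p below 0.05 (edgeR) there were 3 of 19 in wild-type, 8 in knockin and 7 in the mean. Of all genes 19.9%, 20.8% and 28.9% passed that threshold, so the knockin count was above the share of all genes. Stmn2, Ncam1 and Tubb3 of this list, at mean CPM of 298, 282 and 206, are not particular to young neurons. Sema3c, a secreted semaphorin, rose in both genotypes, with log2 fold changes of 0.38 and 0.29. Dpysl5, which encodes a collapsin response mediator protein of growing axons, rose in wild-type by 0.36. Among those that fell in the mean was Dpysl3, of the same family, at -0.16. Of 10 immature granule neuron genes Sox12, the third SoxC factor, fell in both genotypes, from 25.1 ± 2.70 to 20.3 ± 1.34 CPM in wild-type and from 25.1 ± 2.10 to 20.8 ± 1.91 in knockin (SD, n = 5). Its log2 fold change was -0.30 in wild-type (SE 0.074, edgeR adjusted p = 0.00721) and -0.28 in knockin (SE 0.073, adjusted p = 0.0129). Sox4 (-0.010 in wild-type and -0.21 in knockin) and Sox11 (-0.082 and -0.11) were not called, and their difference from Sox12 was not tested. Neurod2 rose in the mean of both genotypes by 0.14 (SE 0.046, edgeR adjusted p = 0.0321). Its relative Neurod1 had the same direction at 0.10 (SE 0.052) and was not called. Of 10 mature granule neuron genes 0 were called in either genotype by edgeR (3 and 6 at an unadjusted p below 0.05). In the mean Pdzd2 (0.77) and Tdo2 (0.31) rose and C1ql2 (-0.28) and Plk5 (-0.47) fell. No gene of these lists was called for genotype or for the interaction.

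**Figure D5:**
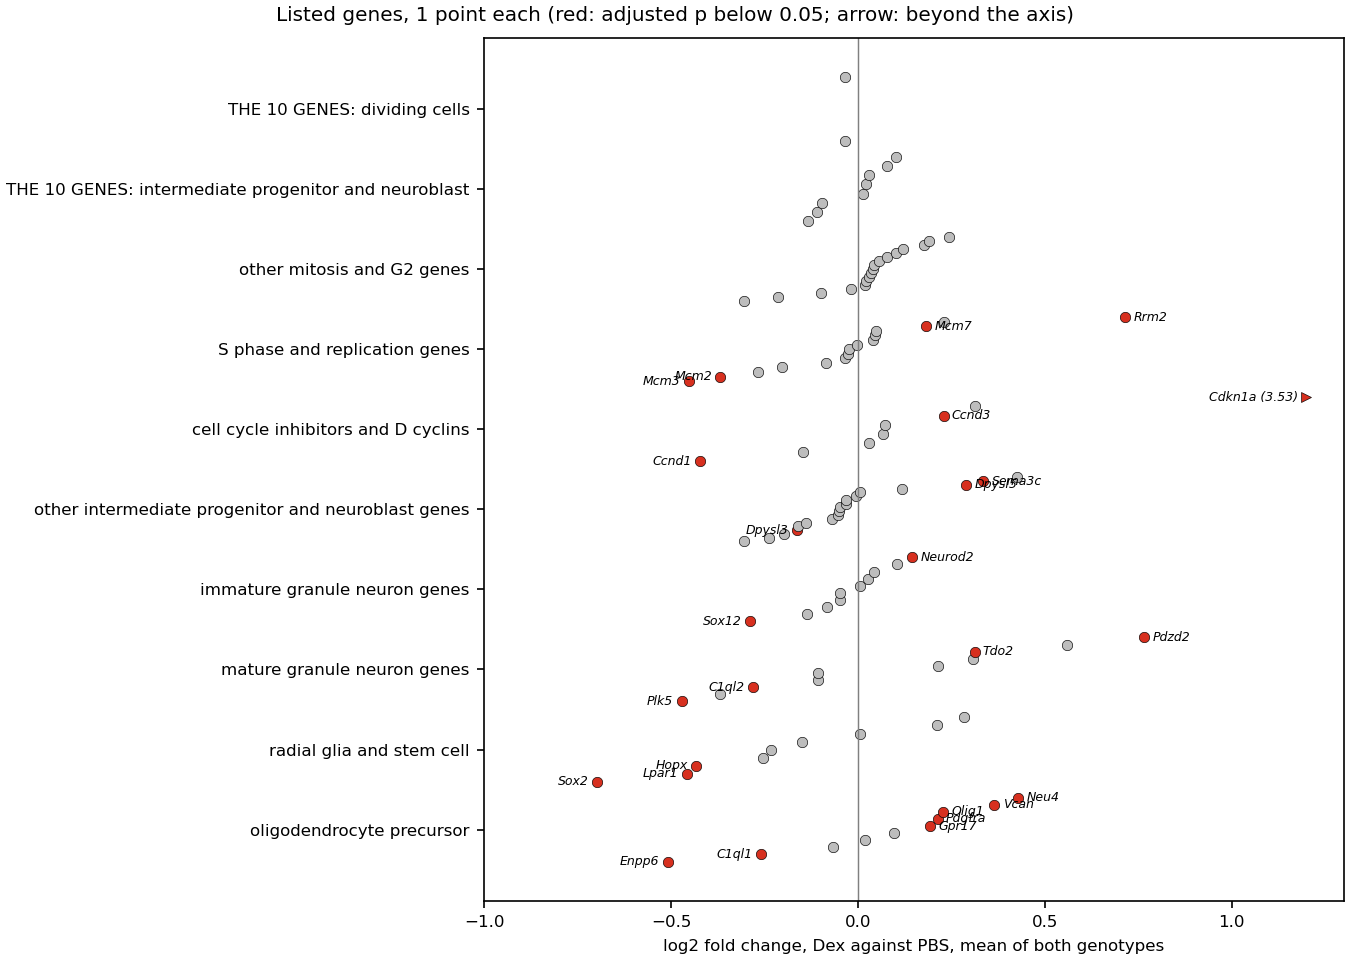
Log2 fold change with Dex, mean of both genotypes, with 1 point per gene shown (red for adjusted p below 0.05). The 10 genes, in the top rows, are all grey and lie within 0.14 of 0, and Cdkn1a at 3.53 lies beyond the axis.

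Markers of neighbouring cell types were read from the same fit. With Dex it called 9.21% of all genes in wild-type, 10.0% in knockin and 18.2% in the mean. Of 9 radial glia and stem cell genes tested, Sox2, Hopx and Lpar1 fell in both genotypes, with mean log2 fold changes of -0.70, -0.43 and -0.46, and astrocytes or oligodendrocytes also express these. Of 10 oligodendrocyte precursor genes, cells that divide in the adult hippocampus as well, Pdgfra, Vcan and Neu4 rose and Enpp6 fell in both genotypes, and Olig1 rose in knockin. In the mean Gpr17 also rose (0.19) and C1ql1 fell (-0.26). Cells of this kind also contain Mki67 and Top2a, whose source was not tested. Of 8 genes of calretinin interneurons 0 were called in either genotype (1 and 2 at an unadjusted p below 0.05, edgeR), and in the mean of both genotypes Gad2 rose by 0.13. Their summed CPM was 646 to 773 over the 20 libraries. Most of it came from Gad1, Cck and Gad2, at mean CPM of 301, 192 and 158, which are not particular to calretinin cells. Of 6 mossy cell genes Csf2rb2 fell in knockin (-0.54) and in the mean (-0.40), and Ociad2 rose in the mean (0.34). Of 5 Cajal-Retzius cell genes tested Reln rose in wild-type (0.33) and in the mean (0.25). Microglial Cx3cr1, P2ry12 and Aif1 fell in both genotypes, and Tmem119 rose in the mean (0.18).

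Genes of the ventricular zone and olfactory neuroblasts, another source of Dcx, had a summed CPM of 21.6 to 26.9 over the 20 libraries. They gave 0 calls in either genotype (0 at an unadjusted p below 0.05, edgeR). Most of the sum came from Dlx and Sp factors that interneurons also express, with Dlx1 highest at a mean of 9.36 CPM. Gsx2 was at 0.156 CPM. The sum therefore does not separate interneurons from ventricular tissue. The sums of thalamus and habenula genes were 58.6 to 86.8, and those of ependymal genes 11.5 to 22.0. Blood genes summed to 89.2 to 365. None of these lists, nor those of liver and choroid plexus, was called in either genotype by edgeR. The dentate gyrus itself was represented in every library by Prox1, the granule neuron factor, at group means of 147 to 156 CPM.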

How the data were processed

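Poly(A) RNA of 20 hippocampi was sequenced as 75-base read pairs, per the labels. The authors deposited raw counts (read pairs assigned to each gene) made with featureCounts 2.0.6 on GENCODE M34 basic without a strand option, per the file headers. The submitters' processing notes name STAR 2.5.1, mm39, Subread 1.5.1 and DESeq2 1.38.3. The notes and headers differ in the Subread version. Trimming and aligner options were not stated in those sources. Without strand, overlapping antisense reads cannot be told apart.

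Libraries are biological replicates per the labels and were taken as separate mice; otherwise p-values measure the spread between these samples only, which may be technical. Symbols came from a GRCm38 names table (51884 of 57126 identifiers matched), and gene coordinates are those of the files. In all 40 within-group pairs of libraries counts differed by more than sampling noise (chi-square of 2.56 to 12.7 per gene).

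The test was edgeR 4.0.16 (R 4.3.3) with filterByExpr (minimum count 10, total 15), TMM scaling and a robust quasi-likelihood fit of 4 groups of 5 libraries, with p-values adjusted by Benjamini-Hochberg over 18648 genes and calls at adjusted p below 0.05. Intervals are 95%. Correlations used log2 CPM (prior count 2) centred on groups and 100000 permutations within groups, adjusted over 45 pairs or 10 depth relations. The nearest genes were the 5 highest r among genes whose mean log2 CPM was 0 or more. All 10 genes are named, and up to 4 called genes per list and comparison; Ccnd2, Prox1 and the wider spread under PBS were read after their values were seen. The alternatives were other filters, DESeq2 1.42.0, limma-voom (limma 3.58.1), smaller fits, a replicate block and leaving out libraries. The 10 genes and the lists were chosen with earlier results of these data known. The value of 1 listed gene is not reported here.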

Additional observations from a re-analysis of the deposited data

Results flagged for a closer look

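In the knockin Dex group, replicate 2 stood apart from the other 4 mice for Eomes, the intermediate progenitor gene. Its level was 1.17 CPM, and its gap to the nearest mouse was 0.84 of the range of the group, above the 0.71 that Dixon's test allows for 5 values. This was 1 of 40 combinations of gene and group examined, where chance gives about 1 in 20. The same library had the second highest summed CPM of choroid plexus transcripts, 1420, and the part of that in its Eomes level was not tested.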

How the results depend on the processing

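Under 29 other settings none of the 10 genes was called in any comparison, over 1714 values, and the lowest adjusted p was 0.0531, for the mean Dex response of Neurod1 without knockin PBS replicate 2. Of those values 144 had the other sign than the value in the report, and 5 of these moved by over 1 SE. All 5 came without wild-type PBS replicates 1 and 2, a setting chosen after seeing the data: Igfbpl1 with Dex in wild-type (-0.18) and, for knockin against wild-type under PBS, Sox4 (-0.11), Sox11 (-0.096), Igfbpl1 (-0.13) and Dcx (-0.028). The cause was not tested. The fit to the compared libraries alone called 1 gene for knockin against wild-type under Dex in place of 0, with fewer genes tested. Leaving out each library in turn gave 1288 to 1784 genes with Dex in wild-type, 1501 to 1955 in knockin and 2966 to 3480 in the mean, and 0 for genotype and the interaction. Eomes has no value under the filter of 50 counts in 5 libraries. The labels do not say whether replicate numbers pair the mice, and the values did not show it. Deviations of same-numbered libraries had r of -0.108 to 0.249 over 30 pairs, with 5 over 0.1. Their median was 0.0151, beside -0.00551 for differently numbered libraries, and 6 of 20 libraries correlated best with their own number. A shared litter or day was not tested. With the replicate block 1643 genes were called in wild-type, 1843 in knockin and 3367 in the mean, and 0 of the 10. Low counts limit Eomes most.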
